A study of Mus musculus with 24 samples.

Results

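The genes of the standard proteasome were followed across 6 groups of mouse bone marrow-derived macrophages, the macrophages grown from bone marrow precursors in medium conditioned by the L929 fibroblast line. Members were the genes whose symbol is Psma, Psmb, Psmc, Psmd or Psme followed by a number, without the 3 inducible catalytic subunits Psmb8, Psmb9 and Psmb10. With at least 60 counts over the 24 libraries, 39 of 40 such genes were kept out of 55401 in the count table, and Psmb11 had no count. The 39 genes were 8 of the alpha ring, 7 of the beta ring, 6 ATPases and 11 non-ATPase subunits of the 19S particle, 3 assembly chaperones of that particle and 4 activators.

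The proteasome degrades proteins marked with ubiquitin. Its 20S core is a stack of alpha and beta rings, and the beta subunits Psmb5, Psmb6 and Psmb7 carry the catalytic sites. The 19S particle binds ubiquitinated proteins, and its ring of ATPases unfolds them and threads them into the core. Psme1 and Psme2 form the PA28 activator, Psme3 forms PA28 gamma and Psme4 is PA200, all of which can bind the ends of the core. In activated macrophages, inducible catalytic subunits can replace the standard ones and give the immunoproteasome, which favours peptides for presentation to T cells.

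All cells were wild type and came from 1 cell type. They had received 30 µM S14 (sphingomyelin d18:1/14:0, a membrane lipid), 100 ng/mL lipopolysaccharide (LPS, a bacterial cell wall component that activates Toll-like receptor 4) or nothing, for 3 h or for 18 h. Each of the 6 groups had 4 libraries. The untreated cells are called vehicle in the column names of the count table, and the labels do not say whether the lipid's solvent was added to them. The labels do not say either whether the 4 libraries of a group came from separate animals or cultures, so p-values measure the spread between these libraries, which may be technical. RNA was read from transcript 3′ ends (QuantSeq), with about 1 read expected per transcript whatever its length. Levels are CPM, counts divided by library size after scaling by edgeR's trimmed mean of M values (TMM).

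The libraries held 3334182 to 6350251 counts and 13405 to 15505 detected genes. All 7 macrophage markers looked at were detected in every group, while erythroid markers had no read and the summed T cell, B cell and dendritic cell markers stayed at or below 1.89 CPM. Replicate 4 of the untreated cells at 18 h stood apart, with a standard deviation of log2 deviations from its group of 0.518, against 0.327 to 0.345 in the others of that group. It also had 0.0134% spike-in reads, against 0.0333% to 0.0418% in the others of that group. Results at 18 h are given with and without it where it matters. LPS replicate 1 at 3 h (0.0178%, others 0.0279% to 0.0319%) and LPS replicate 4 at 18 h (0.0218%, others 0.0372% to 0.0434%) were low too. Both were kept in every fit that used spike-in reads. In bulk RNA, fewer cells of a type and less RNA per cell cannot be told apart.

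At 3 h, LPS raised most of the set, while S14 raised a minority of it. Of 38 members tested, 25 were higher and 1 lower in LPS cells than in untreated cells (edgeR's quasi-likelihood test, Benjamini-Hochberg adjusted p under 0.05). In the same comparison 25.3% of all 11717 genes tested were higher and 30.2% lower, or 55.5% in either direction. In S14 cells at 3 h, 10 of 38 were higher than in untreated cells and 0 lower, against 9.05% of all genes higher and 6.2% lower. A fit of S14 and untreated cells alone called 19, and DESeq2 over all libraries called 13 higher and 0 lower. At an unadjusted p under 0.05, edgeR had 21 higher and 0 lower.

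At 18 h nearly the whole set was higher in LPS cells than in untreated cells, with 36 of 38 called higher and 0 lower, against 27.3% of all genes higher and 28.3% lower, or 55.6% in either direction. The 2 members not called were Psma3 and Psmd8. Psmd8 was at 1.06-fold the level of untreated cells. Psma3 shares its 3′ end with a pseudogene and was called in the second deposited table (below). Whether the split of reads between Psma3 and that pseudogene explains the missing call was not tested. In S14 cells at 18 h, 26 of 38 were higher and 0 lower, against 12.6% of all genes higher and 11.6% lower. No member was lower at an unadjusted p under 0.05 or by DESeq2 in either 18 h comparison. Within each time both treatments were compared with the same 4 untreated libraries. The median log2 fold change of the members was 0.19 for S14 at 3 h, 0.32 for LPS at 3 h, 0.42 for S14 at 18 h and 0.96 for LPS at 18 h. The medians over all genes tested were -0.03, -0.11, -0.02 and -0.04 in that order.

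These directions are relative to the other genes of each library, and added control RNAs in the second deposited table (92 of the ERCC set, 22 of the SIRV set) allowed another scaling. Scaled to spike-in reads, 1 member was called higher for S14 at 3 h, 13 for LPS at 3 h and 5 for LPS at 18 h, with 0 lower in each. For S14 at 18 h that scaling turned the direction, with 0 called higher and 12 lower. Members that kept a positive value there were thus not called. Without untreated replicate 4 at 18 h the spike-in counts were 2 higher, 26 higher and 27 higher, and 0 in either direction for S14 at 18 h. The scaling moved the median of all genes by 0.11, 0.34, -0.97 and -0.64 on the log2 scale for S14 at 3 h, LPS at 3 h, S14 at 18 h and LPS at 18 h. Without untreated replicate 4 at 18 h these shifts were 0.12, 0.34, -0.48 and -0.16. With all libraries, the median over all genes under that scaling was 0.09, 0.23, -0.98 and -0.68 in the same order. Shares of all genes called under spike-in scaling are not given here or below. The counts of members called under it therefore have no background to be read against. Of the 36 members called for LPS at 18 h, 8 turned direction under spike-in scaling and 0 without that replicate. Where a value or count under spike-in scaling is followed by one without untreated replicate 4, both are under that scaling.

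**Figure D1:**
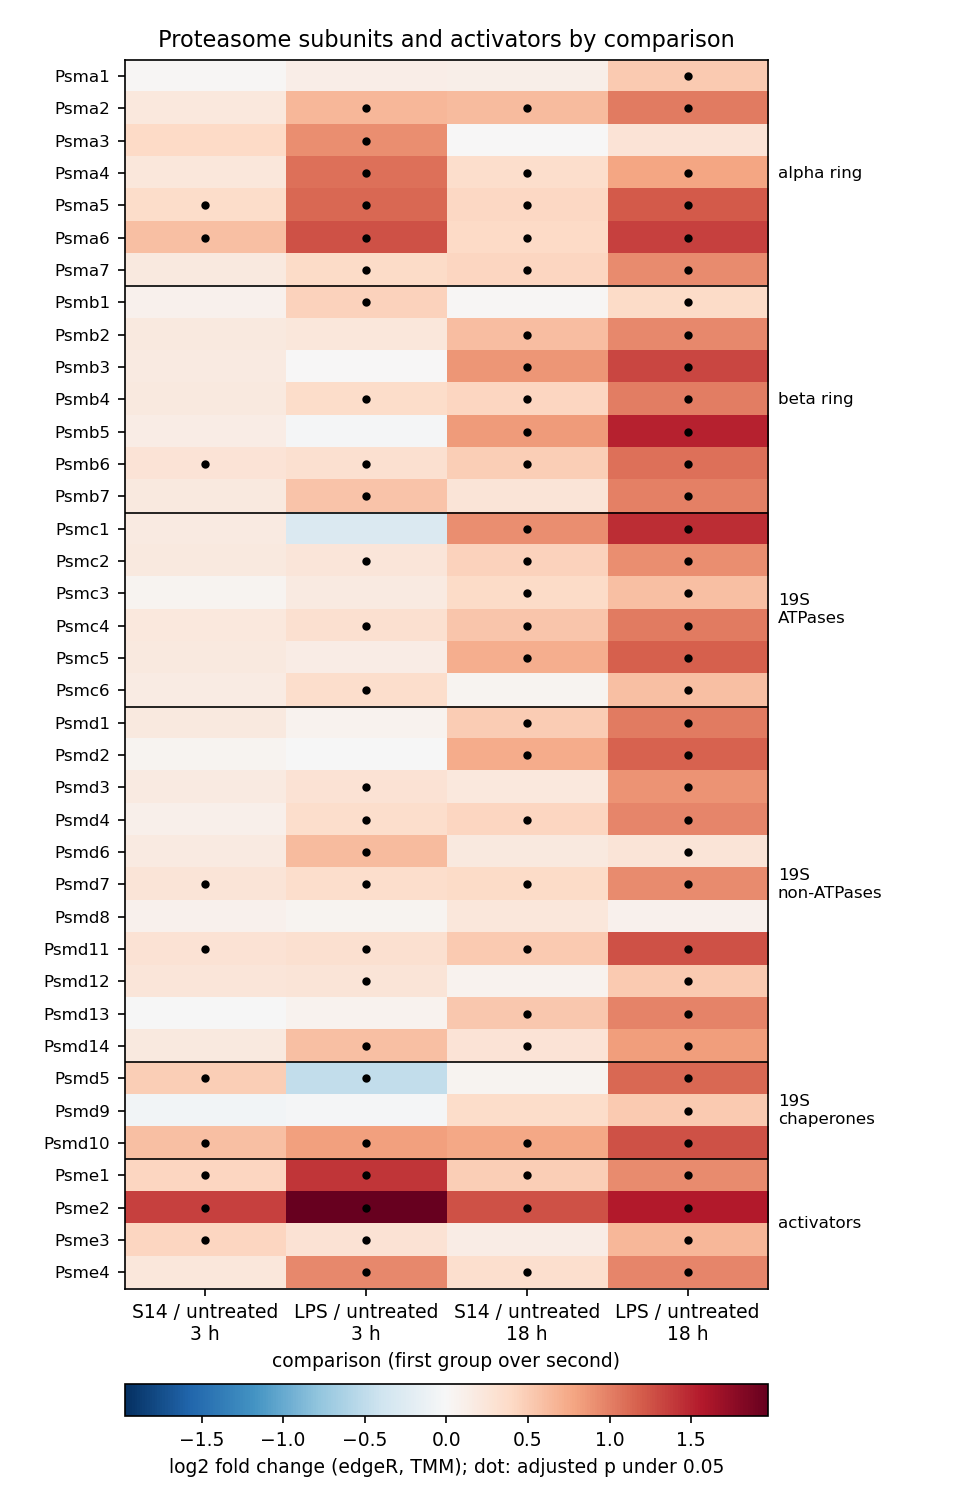
Log2 fold change of the 38 tested members (rows, grouped by class) in 4 comparisons (columns, treated over untreated); colour gives the size and a black dot an adjusted p under 0.05. LPS at 18 h has dots on 36 of 38 rows, LPS at 3 h on 26, S14 at 18 h on 26, of which 23 turn direction under spike-in scaling (15 without untreated replicate 4), and S14 at 3 h on 10.

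The alpha ring, which gates the core, was the class of the core that moved most at 3 h of LPS. Of its 7 tested members 6 were higher in LPS cells at 3 h, with a median log2 fold change of 0.91, and 6 were higher at 18 h, with a median of 0.93. Summed over the ring, the level was 1831 ± 44.4 CPM in LPS cells at 3 h and 1054 ± 29.9 CPM in untreated cells at 3 h (SD, n = 4 each). S14 raised 2 of 7 at 3 h and 5 of 7 at 18 h. All 5 of the 18 h calls turned direction under spike-in scaling, or 4 of them without untreated replicate 4. For this and the other classes, LPS gave 25.3% of all genes higher and 30.2% lower at 3 h, and 27.3% and 28.3% at 18 h. S14 gave 9.05% higher and 6.2% lower at 3 h, and 12.6% and 11.6% at 18 h.

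Psma6, a structural alpha subunit, was among the largest movers of the core. After 3 h Psma6 had 278, 278, 300 and 303 CPM in S14 cells, 421, 416, 488 and 509 CPM in LPS cells, and 190, 182, 199 and 197 CPM in untreated cells. After 18 h Psma6 had 174, 180, 190 and 177 CPM in S14 cells, 364, 364, 327 and 338 CPM in LPS cells, and 141, 145, 152 and 113 CPM in untreated cells. The 3 groups did not overlap at either time, with LPS cells highest and untreated cells lowest. The log2 fold change for LPS was 1.26 ± 0.08 at 3 h and 1.34 ± 0.08 at 18 h (SE), with edgeR adjusted p of 5e-17 and 1.22e-17. For S14 it was 0.59 ± 0.08 at 3 h (edgeR adjusted p = 3.54e-07) and 0.39 ± 0.08 at 18 h (edgeR adjusted p = 0.000507), and the 18 h value was -0.54 under spike-in scaling and -0.18 without untreated replicate 4.

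Other alpha subunits at 3 h of LPS ranged from Psma5 at 2.19-fold and Psma4 at 2.12-fold to Psma7 at 1.3-fold and Psma1, which was not called, at 1.1-fold. Psma8, the alpha subunit known from testis, held 19, 19 and 13 counts in S14, LPS and untreated cells at 3 h, summed over 4 libraries, and 22, 15 and 32 at 18 h. It was below the filter and was not tested. Psma3 was called at 3 h of LPS (1.88-fold) and not at 18 h (log2 fold change 0.27, edgeR adjusted p = 0.146). The processed pseudogene Gm13835 is identical to Psma3 over 190 bases at its 3′ end and took 5648 counts in the count table, against 3672 for Psma3. In the second deposited table Psma3 had 9064 reads and Gm13835 38, and there Psma3 was higher in LPS cells at 18 h, with a log2 fold change of 0.81 ± 0.11 (edgeR adjusted p = 2.99e-08). For S14 at 3 h that table also called Psma3 higher, with a log2 fold change of 0.40 ± 0.11 (edgeR adjusted p = 0.00917). That table called 37 of 38 members higher and 0 lower for LPS at 18 h.

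In LPS cells 4 of 7 members of the beta ring were higher at 3 h, with a median log2 fold change of 0.31. At 18 h 7 of 7 were higher, with a median of 1.01. The 4 of 7 at 3 h was near the 55.5% of all genes called in either direction, with 25.3% of all genes higher. The difference between LPS and untreated cells was larger at 18 h for 6 of 7, of which Psmb2, Psmb4, Psmb6 and Psmb7 turned direction under spike-in scaling, and Psmb7 alone without untreated replicate 4. The ring summed to 1772 ± 61.9 CPM in LPS cells and 963 ± 41.1 CPM in untreated cells at 18 h (SD, n = 4 each). S14 raised 1 of 7 at 3 h and 5 of 7 at 18 h, and 4 of those 5 turned direction under spike-in scaling, Psmb3 being the exception, while without untreated replicate 4 Psmb4 and Psmb6 turned.

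Psmb5 carries the chymotrypsin-like site. After 3 h Psmb5 had 37.2, 39.5, 39.8 and 48.1 CPM in S14 cells, 34.6, 40.4, 29.6 and 41.8 CPM in LPS cells, and 32.5, 34.5, 37.6 and 44.4 CPM in untreated cells. After 18 h Psmb5 had 40.1, 31.3, 41.7 and 42.7 CPM in S14 cells, 69.6, 57.9, 67.8 and 53.3 CPM in LPS cells, and 23.6, 20.1, 18.2 and 25.2 CPM in untreated cells. The groups overlapped at 3 h and were apart at 18 h. The log2 fold change for LPS was -0.03 ± 0.14 at 3 h (edgeR adjusted p = 0.893), which changed sign under several settings, and 1.52 ± 0.14 at 18 h (edgeR adjusted p = 1.81e-12). That was the largest change of any beta subunit. For S14 at 18 h it was 0.84 ± 0.14 (edgeR adjusted p = 1.47e-05), with -0.19 under spike-in scaling and 0.46 without untreated replicate 4.

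Psmb6 carries the caspase-like site and had the most reads of the 3 standard catalytic subunits. After 3 h Psmb6 had 411, 477, 395 and 440 CPM in S14 cells, 427, 442, 462 and 431 CPM in LPS cells, and 365, 356, 343 and 363 CPM in untreated cells. After 18 h Psmb6 had 344, 346, 370 and 347 CPM in S14 cells, 550, 527, 548 and 511 CPM in LPS cells, and 274, 251, 238 and 250 CPM in untreated cells. Untreated cells were the lowest group at both times, with no overlap. The folds were 1.21 for S14 and 1.24 for LPS at 3 h, and 1.39 for S14 and 2.11 for LPS at 18 h, all called, while S14 at 18 h turned to a log2 fold change of -0.52 under spike-in scaling and was -0.00 without untreated replicate 4.

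Psmb7 carries the trypsin-like site. After 3 h Psmb7 had 94.6, 135, 125 and 125 CPM in S14 cells, 149, 141, 164 and 162 CPM in LPS cells, and 111, 102, 96.2 and 109 CPM in untreated cells. After 18 h Psmb7 had 102, 80.9, 102 and 102 CPM in S14 cells, 168, 172, 155 and 155 CPM in LPS cells, and 78.4, 80.5, 78.4 and 88.6 CPM in untreated cells. S14 and untreated cells overlapped at both times, and LPS cells were above both. Only LPS was called, with 1.47-fold at 3 h and 1.99-fold at 18 h. For S14 the log2 fold change was 0.20 (edgeR adjusted p = 0.184) at 3 h and 0.25 (edgeR adjusted p = 0.0603) at 18 h. Without S14 replicate 1 at 3 h the adjusted p was 0.03, without S14 replicate 2 at 18 h it was 0.0174, and without untreated replicate 4 at 18 h it was 0.0265. The S14 value at 18 h was -0.78 under spike-in scaling and -0.18 under that scaling without untreated replicate 4. The 3′ end of Psmb7 overlaps Nek6 on the opposite strand, and no source used here gives the strand setting of the counting.

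Psmb3, a structural beta subunit, also differed from untreated cells at 18 h of LPS and not at 3 h. After 3 h Psmb3 had 140, 134, 120 and 127 CPM in S14 cells, 106, 116, 119 and 122 CPM in LPS cells, and 114, 111, 116 and 121 CPM in untreated cells. After 18 h Psmb3 had 115, 116, 125 and 126 CPM in S14 cells, 180, 153, 171 and 149 CPM in LPS cells, and 74.5, 74.9, 68.1 and 46.4 CPM in untreated cells. LPS and untreated cells shared their range at 3 h and had none in common at 18 h. The log2 fold change for LPS was 0.00 ± 0.10 at 3 h and 1.31 ± 0.10 at 18 h (edgeR adjusted p = 1.43e-14). For S14 at 18 h it was 0.87 ± 0.10 (edgeR adjusted p = 1.37e-08). That S14 value kept its direction under spike-in scaling but was not called there. Psmb1, the structural subunit with the smallest change in the ring at 18 h of LPS, was 1.3-fold higher, with a log2 fold change of -0.31 under spike-in scaling and 0.25 without untreated replicate 4. In the count table, 11.3% of the reads given to Psmb3 and its near-identical pseudogenes were on the pseudogenes, and the second table gave Psmb3 1.22 times as many reads, with log2 fold changes for LPS of -0.04 at 3 h and 1.39 at 18 h.

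**Figure D2:**
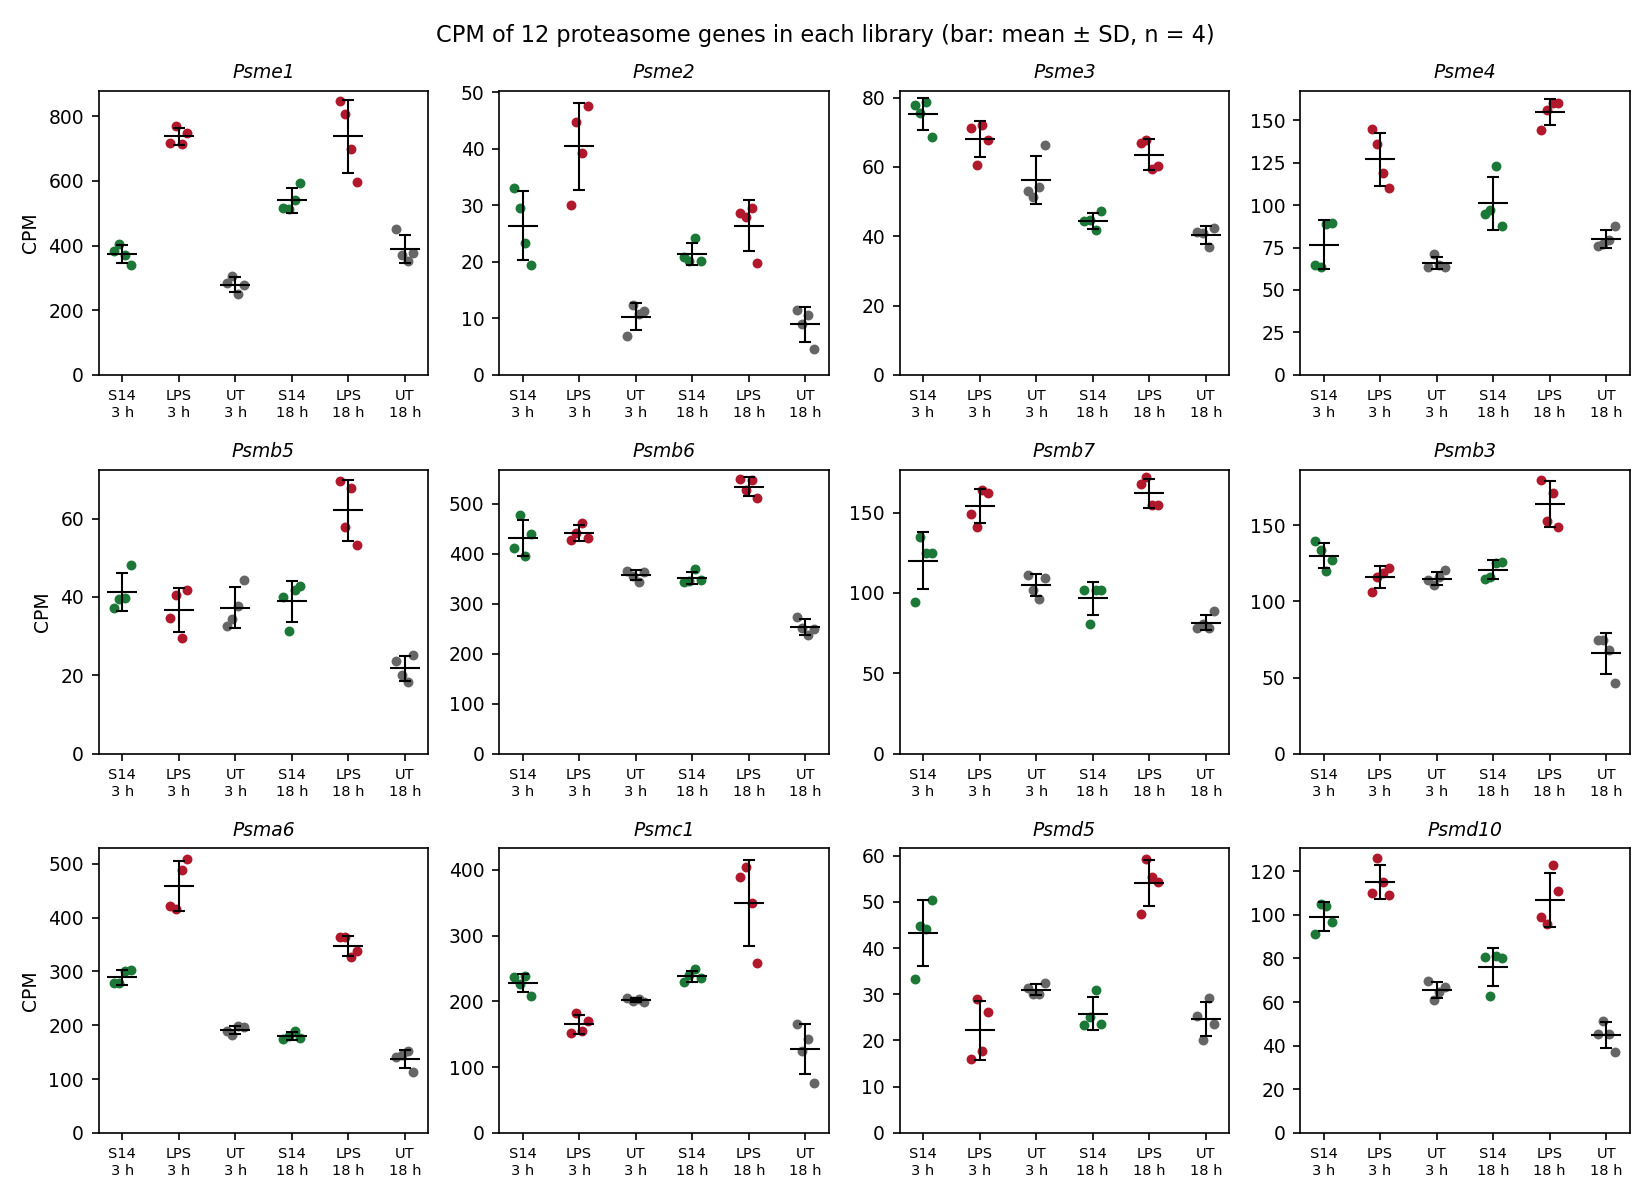
CPM in each library (points) with the mean and SD (bars, n = 4) for 12 members, with S14, LPS and untreated (UT) groups at 3 h and then at 18 h. Psmb5, Psmb3 and Psmc1 separate LPS from untreated cells upward at 18 h and not at 3 h, whereas Psme1 and Psma6 do so at both times.

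The inducible counterparts were measured in the same libraries. Psmb8, Psmb9 and Psmb10 were 3.35-fold, 4.74-fold and 5.07-fold higher in LPS cells at 3 h, and 1.82-fold, 2.14-fold and 1.46-fold higher at 18 h. The LPS over untreated difference was lower at 18 h, by -0.88, -1.15 and -1.80 on the log2 scale (edgeR adjusted p = 2.55e-08, 1.63e-09 and 3.84e-17). In S14 cells they were 1.44-fold, 1.41-fold and 1.74-fold higher at 3 h and 1.37-fold, 1.27-fold and 1.29-fold higher at 18 h, all called. Under spike-in scaling the log2 fold changes for S14 at 18 h turned to -0.52, -0.65 and -0.67, and were -0.04, -0.15 and -0.05 without untreated replicate 4. For LPS at 18 h that of Psmb10 was -0.16 under spike-in scaling and 0.46 without untreated replicate 4. Of the reads given to the 6 catalytic genes, the inducible 3 took 58.5% ± 2.82 in S14 cells, 77.9% ± 0.797 in LPS cells and 52.2% ± 1.78 in untreated cells at 3 h (SD, n = 4 each). At 18 h they took 69.5% ± 0.169 in S14 cells, 66% ± 1.27 in LPS cells and 70.1% ± 0.999 in untreated cells. This share is a ratio within a library and is the same under any library scaling. The lowest LPS library at 3 h (76.8%) was above every other library of that time, and the highest LPS library at 18 h (67.7%) was below every other library of that time.

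**Figure D3:**
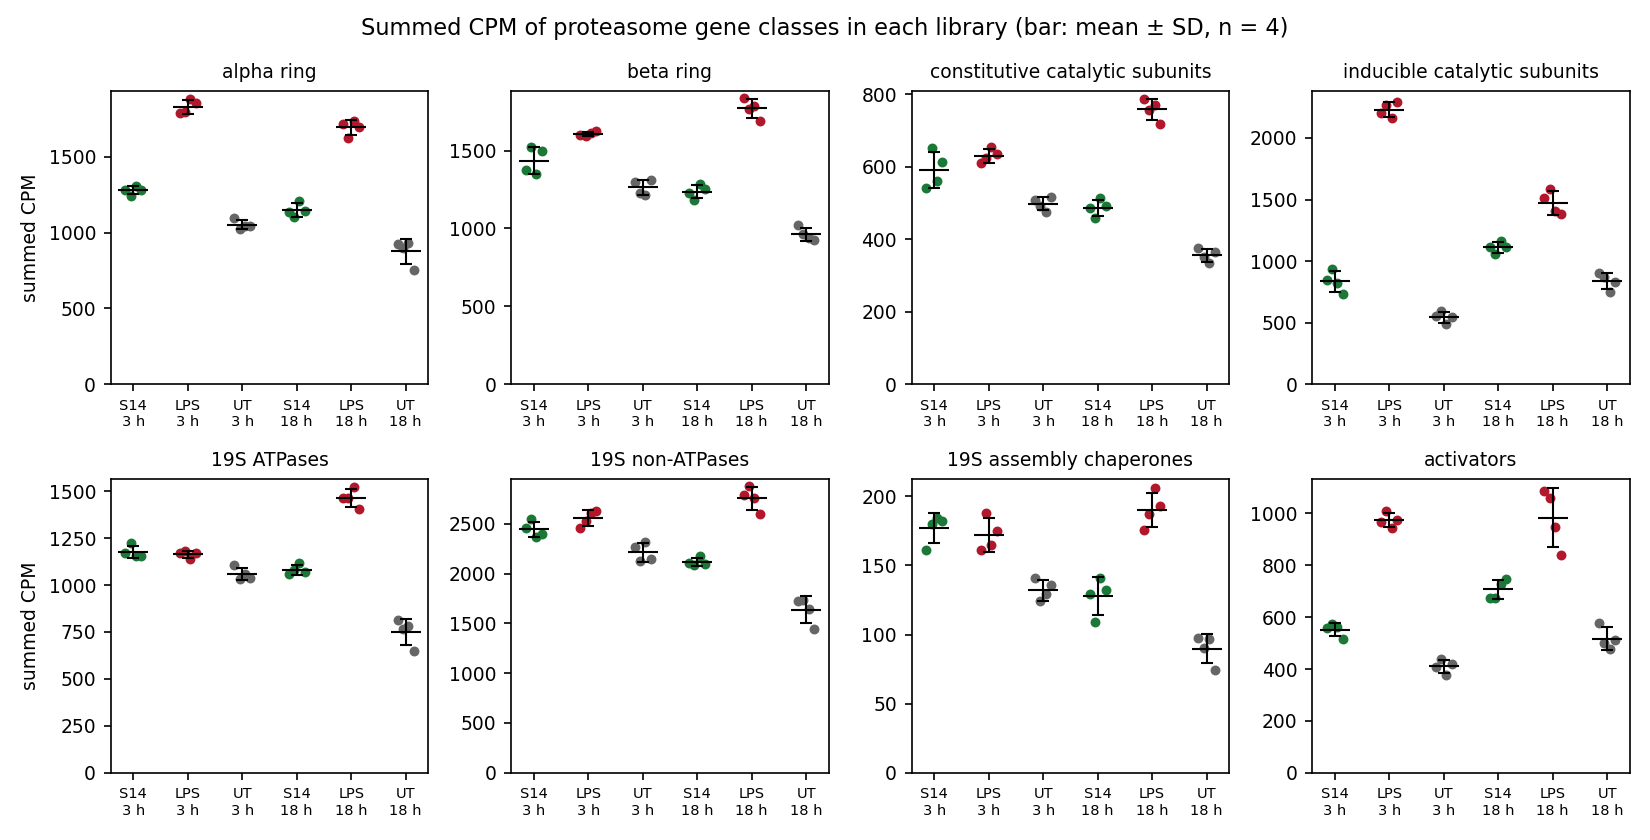
Summed CPM of 8 gene classes in each library (points) with the mean and SD (bars, n = 4), in S14, LPS and untreated (UT) cells at 3 h and at 18 h. The inducible catalytic genes peak in LPS cells at 3 h (2231 CPM), the constitutive ones in LPS cells at 18 h (759 CPM), and the 19S ATPases rise above 1400 CPM in LPS cells at 18 h alone.

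The 19S ATPases gave 3 calls of 6 in LPS cells at 3 h, all higher, with a median log2 fold change of 0.21. At 18 h they gave 6 of 6, with a median of 0.97. The 3 of 6 at 3 h was near the 55.5% of all genes called in either direction, with 25.3% of all genes higher. The ATPases summed to 1462 ± 47.4 CPM in LPS cells and 751 ± 70.2 CPM in untreated cells at 18 h (SD, n = 4 each). For S14 at 3 h edgeR called 0 of 6, with 2 higher at an unadjusted p under 0.05 and 1 higher by DESeq2. At 18 h S14 raised 5 of 6, of which 4 turned direction under spike-in scaling and Psmc1 did not, and 3 turned without untreated replicate 4.

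Psmc1, the ATPase Rpt2, had 237, 227, 239 and 208 CPM in S14 cells at 3 h, 152, 183, 155 and 170 CPM in LPS cells, and 205, 200, 204 and 199 CPM in untreated cells. After 18 h Psmc1 had 229, 240, 249 and 236 CPM in S14 cells, 389, 404, 349 and 258 CPM in LPS cells, and 165, 125, 143 and 75.8 CPM in untreated cells. All 4 LPS libraries were below all 4 untreated libraries at 3 h and above them at 18 h. The log2 fold change for LPS was -0.29 ± 0.15 at 3 h, which was not called (edgeR adjusted p = 0.11) and was 0.04 under spike-in scaling. At 18 h it was 1.46 ± 0.15 (edgeR adjusted p = 1.43e-08). For S14 at 18 h it was 0.91 ± 0.15 (edgeR adjusted p = 8.72e-05), which kept its direction under spike-in scaling but was not called there. Psmc5, the ATPase Rpt6, followed with 2.25-fold for LPS at 18 h and 1.64-fold for S14 at 18 h. At 18 h of LPS the smallest ATPase values were those of Psmc6 (1.5-fold) and Psmc3 (1.52-fold), and both turned direction under spike-in scaling (-0.09 and -0.04 on the log2 scale) but not without untreated replicate 4 (0.61 and 0.39).

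Of the 11 non-ATPase subunits of the 19S particle, 7 were higher in LPS cells at 3 h, with a median log2 fold change of 0.29, and 10 at 18 h, with a median of 0.93. S14 raised 2 of 11 at 3 h and 7 of 11 at 18 h, and those 7 turned direction under spike-in scaling, or 5 of them without untreated replicate 4. Psmd11, which braces the 19S particle against the core, was 2.38-fold higher at 18 h of LPS, the most of this class. Psmd2, a large scaffold subunit, was 0.995-fold at 3 h of LPS, not called, and 2.24-fold at 18 h. Psmd14, the deubiquitinase that removes ubiquitin chains from bound proteins, was 1.52-fold at 3 h and 1.76-fold at 18 h, both called. Psmd6 had the larger value at 3 h, with 1.53-fold at 3 h and 1.19-fold at 18 h, and the difference between times was -0.36 ± 0.15 on the log2 scale (edgeR adjusted p = 0.0388). Psmd8 had the highest mean CPM of the members in untreated cells at both times. It had 502, 559, 517 and 596 CPM in LPS cells at 3 h and 508, 566, 449 and 385 CPM in LPS cells at 18 h. In untreated cells it had 510, 520, 539 and 534 CPM at 3 h and 483, 508, 449 and 352 CPM at 18 h. The groups overlapped in both comparisons, and neither was called.

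The assembly chaperones differed among themselves. Psmd10, known as gankyrin, had 91.2, 105, 104 and 96.5 CPM in S14 cells at 3 h, 110, 126, 115 and 109 CPM in LPS cells, and 69.7, 61, 64.5 and 66.9 CPM in untreated cells. After 18 h Psmd10 had 80.5, 62.8, 80.9 and 80.4 CPM in S14 cells, 99.1, 95.6, 123 and 111 CPM in LPS cells, and 45.5, 51.2, 45.4 and 37.1 CPM in untreated cells. Both treatments were above untreated cells at both times with no overlap, by 1.51-fold for S14 and 1.75-fold for LPS at 3 h and 1.7-fold for S14 and 2.39-fold for LPS at 18 h. All 4 were called, and the S14 value at 18 h had a log2 fold change of -0.14 under spike-in scaling and 0.22 without untreated replicate 4.

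Psmd5, which holds ATPase intermediates during assembly, was the 1 member called lower with LPS. After 3 h Psmd5 had 33.3, 44.7, 44.1 and 50.5 CPM in S14 cells, 16, 29, 17.7 and 26.2 CPM in LPS cells, and 31.3, 30, 30.1 and 32.4 CPM in untreated cells. After 18 h Psmd5 had 23.3, 25.1, 31 and 23.6 CPM in S14 cells, 47.3, 59.4, 55.3 and 54.4 CPM in LPS cells, and 25.4, 20.2, 29.1 and 23.6 CPM in untreated cells. All LPS libraries were below the untreated ones at 3 h and above them at 18 h. The log2 fold change for LPS was -0.48 ± 0.16 at 3 h (edgeR adjusted p = 0.0118) and 1.13 ± 0.15 at 18 h (edgeR adjusted p = 2.04e-08). The 3 h call was lost without LPS replicate 1 (edgeR adjusted p = 0.075) or LPS replicate 3 (edgeR adjusted p = 0.0627). It was also lost under spike-in scaling, where the direction stayed the same. S14 at 3 h gave 0.49 ± 0.15 (edgeR adjusted p = 0.0223), lost on leaving out any of 5 libraries, untreated replicates 2 and 3 or S14 replicates 2, 3 and 4, with edgeR adjusted p of 0.0511 to 0.127. Psmd9, another chaperone, was called for LPS at 18 h alone among the 4 treatment comparisons, at 1.42-fold, with a log2 fold change of -0.02 under spike-in scaling and 0.19 without untreated replicate 4.

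Among the activators, all 4 were higher in LPS cells at 3 h and all 4 at 18 h, with median log2 fold changes of 1.18 and 0.94. S14 raised 3 of 4 at each time, and at 18 h Psme1 and Psme4 turned direction under spike-in scaling while Psme2 did not, and without untreated replicate 4 Psme4 alone turned. Summed, they reached 552 ± 24.5 CPM in S14 cells, 974 ± 27.4 CPM in LPS cells and 411 ± 25.8 CPM in untreated cells at 3 h (SD, n = 4 each). At 18 h they reached 707 ± 38.2 CPM in S14 cells, 983 ± 114 CPM in LPS cells and 517 ± 43.7 CPM in untreated cells.

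Psme1, PA28 alpha, lies on chromosome 14 (GRCm38, chr14:55578123-55581529, plus strand, 11 exons). After 3 h Psme1 had 382, 405, 370 and 340 CPM in S14 cells, 719, 769, 715 and 750 CPM in LPS cells, and 283, 305, 249 and 277 CPM in untreated cells. After 18 h Psme1 had 515, 512, 541 and 594 CPM in S14 cells, 846, 808, 700 and 597 CPM in LPS cells, and 450, 372, 351 and 378 CPM in untreated cells. No group overlapped another at either time. The log2 fold change for LPS was 1.41 ± 0.09 at 3 h (edgeR adjusted p = 1.76e-17) and 0.93 ± 0.09 at 18 h (edgeR adjusted p = 4.95e-12). For S14 it was 0.42 ± 0.09 at 3 h (edgeR adjusted p = 0.000425) and 0.48 ± 0.09 at 18 h (edgeR adjusted p = 5.95e-05), with -0.51 at 18 h under spike-in scaling and 0.00 without untreated replicate 4. The 3′ end of Psme1 overlaps Emc9 on the opposite strand.

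Psme2, PA28 beta, has a near-identical copy that decides how many reads it is given. Psme2 lies at chr14:55587441-55591113 on the minus strand with 11 exons, and Psme2b at chr11:48945354-48946190 on the minus strand with 1 exon (GRCm38). Their transcripts were 99.37% identical over 794 aligned bases, with 5 mismatches, all of them in the coding part. The stretch of coding bases 303 to 552, which holds all 5, is shown for both because a read within the aligned bases that covers none of the 5 matches both genes, and capitals mark the bases that differ.
Psme2: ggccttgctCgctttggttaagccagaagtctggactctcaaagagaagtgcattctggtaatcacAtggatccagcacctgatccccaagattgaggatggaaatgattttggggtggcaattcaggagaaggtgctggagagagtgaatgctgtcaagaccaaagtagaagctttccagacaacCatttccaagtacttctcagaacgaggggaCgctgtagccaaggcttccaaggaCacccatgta
Psme2b: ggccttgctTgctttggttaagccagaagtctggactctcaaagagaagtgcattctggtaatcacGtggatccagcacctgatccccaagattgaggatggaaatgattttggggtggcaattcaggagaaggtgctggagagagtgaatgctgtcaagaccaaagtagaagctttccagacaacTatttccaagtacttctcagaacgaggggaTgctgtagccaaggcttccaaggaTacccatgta
The 2 deposited tables split these reads in opposite ways. The count table gave 2349 reads to Psme2 and 19738 to Psme2b over the 24 libraries, and the second table gave 22117 and 445.

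**Figure D4:**
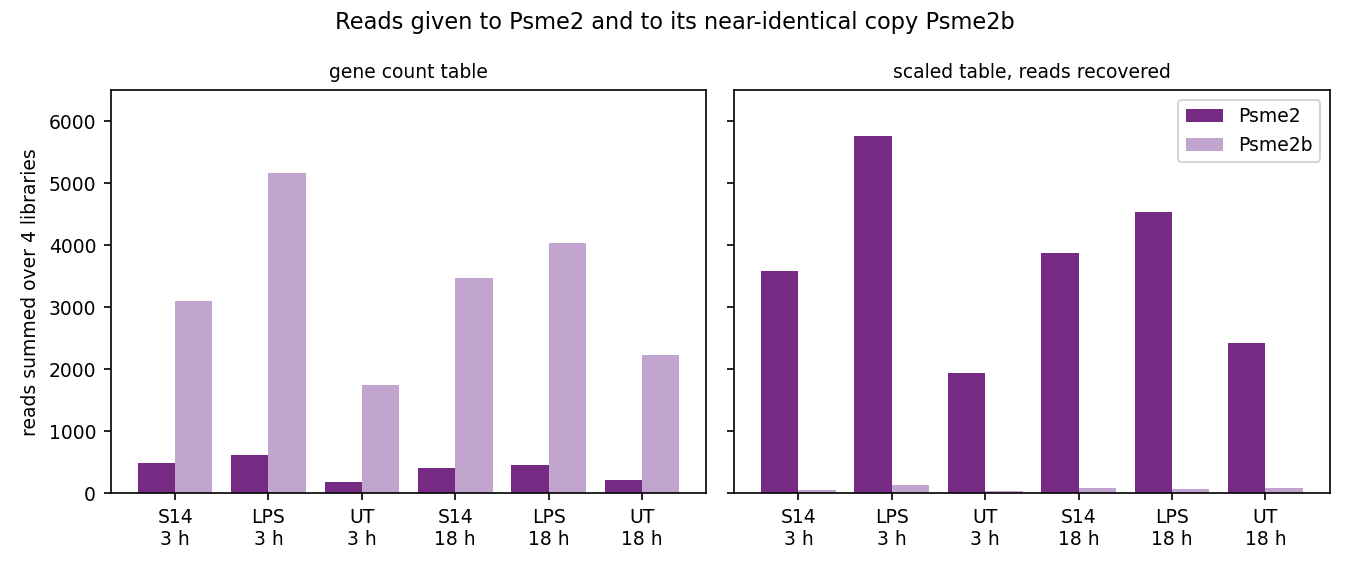
Reads given to Psme2 and to Psme2b (bars, summed over the 4 libraries of each group) in the count table (left) and recovered from the second deposited table (right). The tables place the reads on opposite genes, yet in both the LPS group at 3 h holds the most.

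In the count table Psme2 had 33.1, 29.6, 23.4 and 19.5 CPM in S14 cells at 3 h, 30, 44.8, 39.3 and 47.5 CPM in LPS cells, and 6.83, 12.4, 10.8 and 11.2 CPM in untreated cells. After 18 h Psme2 had 20.9, 20.2, 24.2 and 20.2 CPM in S14 cells, 28.6, 27.9, 29.5 and 19.7 CPM in LPS cells, and 11.4, 9.01, 10.6 and 4.55 CPM in untreated cells. Both treatments were above untreated cells at both times with no overlap. The log2 fold changes were 1.34 ± 0.22 for S14 and 1.97 ± 0.21 for LPS at 3 h, and 1.26 ± 0.21 for S14 and 1.56 ± 0.21 for LPS at 18 h, all called. In the second table, whose reads fell on Psme2, they were 0.76 ± 0.19, 1.75 ± 0.19, 1.05 ± 0.19 and 1.40 ± 0.19 in the same order, again all called. The S14 value at 3 h is thus the one that depends most on the table, 2.53-fold in the count table. Read together, Psme2 and Psme2b summed to 191 ± 4.66 CPM in S14 cells, 379 ± 35.3 CPM in LPS cells and 112 ± 8.96 CPM in untreated cells at 3 h (SD, n = 4 each).

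Psme3, the nuclear PA28 gamma, moved least of the activators with LPS. After 3 h Psme3 had 78, 75.7, 78.8 and 68.7 CPM in S14 cells, 71.4, 60.7, 72.1 and 67.8 CPM in LPS cells, and 53, 51.3, 54.1 and 66.4 CPM in untreated cells. After 18 h Psme3 had 44.3, 44.7, 41.7 and 47.2 CPM in S14 cells, 66.8, 67.9, 59.3 and 60.3 CPM in LPS cells, and 41.2, 40.9, 36.8 and 42.5 CPM in untreated cells. S14 cells were above untreated cells at 3 h and overlapped them at 18 h. It was 1.34-fold for S14 (edgeR adjusted p = 0.00258) and 1.21-fold for LPS (edgeR adjusted p = 0.0238) at 3 h. The LPS call at 3 h was lost on leaving out any of 5 libraries, untreated replicates 1, 2 and 3 or LPS replicates 1 and 3, with edgeR adjusted p of 0.0608 to 0.0853. At 18 h it was 1.1-fold for S14, not called, and 1.58-fold for LPS (edgeR adjusted p = 1.03e-06), where spike-in scaling gave a log2 fold change of -0.04, and 0.53 without untreated replicate 4.

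Psme4, PA200, is known for work on acetylated core histones. After 3 h Psme4 had 64.9, 63.5, 88.9 and 89.3 CPM in S14 cells, 145, 136, 119 and 110 CPM in LPS cells, and 63.6, 71.2, 64.5 and 63.8 CPM in untreated cells. After 18 h Psme4 had 94.5, 97.4, 123 and 87.6 CPM in S14 cells, 144, 156, 160 and 160 CPM in LPS cells, and 76.1, 77.3, 79.3 and 87.5 CPM in untreated cells. LPS cells were above the rest at both times, by 1.94-fold over untreated cells at 3 h and at 18 h. For S14 the log2 fold change was 0.23 ± 0.11 at 3 h (edgeR adjusted p = 0.205) and 0.33 ± 0.11 at 18 h (edgeR adjusted p = 0.0229), and the 18 h value turned to -0.72 under spike-in scaling and was -0.11 without untreated replicate 4. Without S14 replicate 3 at 18 h it was 0.22 with an adjusted p of 0.171, and without untreated replicate 2 it was 0.31 with an adjusted p of 0.0504.

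Untreated cells themselves differed between the times. Of 38 members, 26 were lower and 2 higher in untreated cells at 18 h than at 3 h, against 19.6% of all genes lower and 19.2% higher. Of the 17 subunits of the 19S particle 15 were lower, with a median log2 fold change of -0.51, and of the 14 tested core subunits 8 were lower, with a median of -0.39. Psme1 was 1.39-fold higher (edgeR adjusted p = 3.53e-05) and Psme4 1.22-fold higher (edgeR adjusted p = 0.0415), as were Psmb8, Psmb9 and Psmb10. Under spike-in scaling 23 of these 28 turned direction, with 4 members called higher and 0 lower. Without untreated replicate 4 at 18 h, 5 of the 28 turned under that scaling, with 1 called higher and 0 lower. Summed over all members, the level at 3 h was 7065 ± 159 CPM in S14 cells, 8308 ± 120 CPM in LPS cells and 6136 ± 141 CPM in untreated cells (SD, n = 4 each). At 18 h it was 6417 ± 182 CPM in S14 cells, 8858 ± 294 CPM in LPS cells and 4836 ± 338 CPM in untreated cells.

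The response to LPS differed between the times for most members. The LPS over untreated difference was larger at 18 h than at 3 h for 25 of 38 and smaller for 4, against 25.1% of all genes larger and 26.1% smaller. The 4 with a smaller difference were Psma3, Psma4, Psmd6 and Psme1, and Psma3 was not called there in the second table (edgeR adjusted p = 0.122). By class it was larger for 9 of 14 tested core subunits, 12 of 17 of the 19S particle, 3 of 3 chaperones and 1 of 4 activators. Psmc1 differed by 1.75 ± 0.22, Psmd5 by 1.62 ± 0.22, Psmb5 by 1.54 ± 0.20 and Psmb3 by 1.31 ± 0.14 on the log2 scale. Of the 29 called, 17 turned direction under spike-in scaling, which called 0 larger and 6 smaller. Without untreated replicate 4 at 18 h, 7 of the 29 turned, and 3 were called larger and 4 smaller. For S14 the difference was larger at 18 h for 8 of 38 and smaller for 0, against 7.61% and 8.98% of all genes. All 8 turned under spike-in scaling, and 7 of them without untreated replicate 4.

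**Figure D5:**
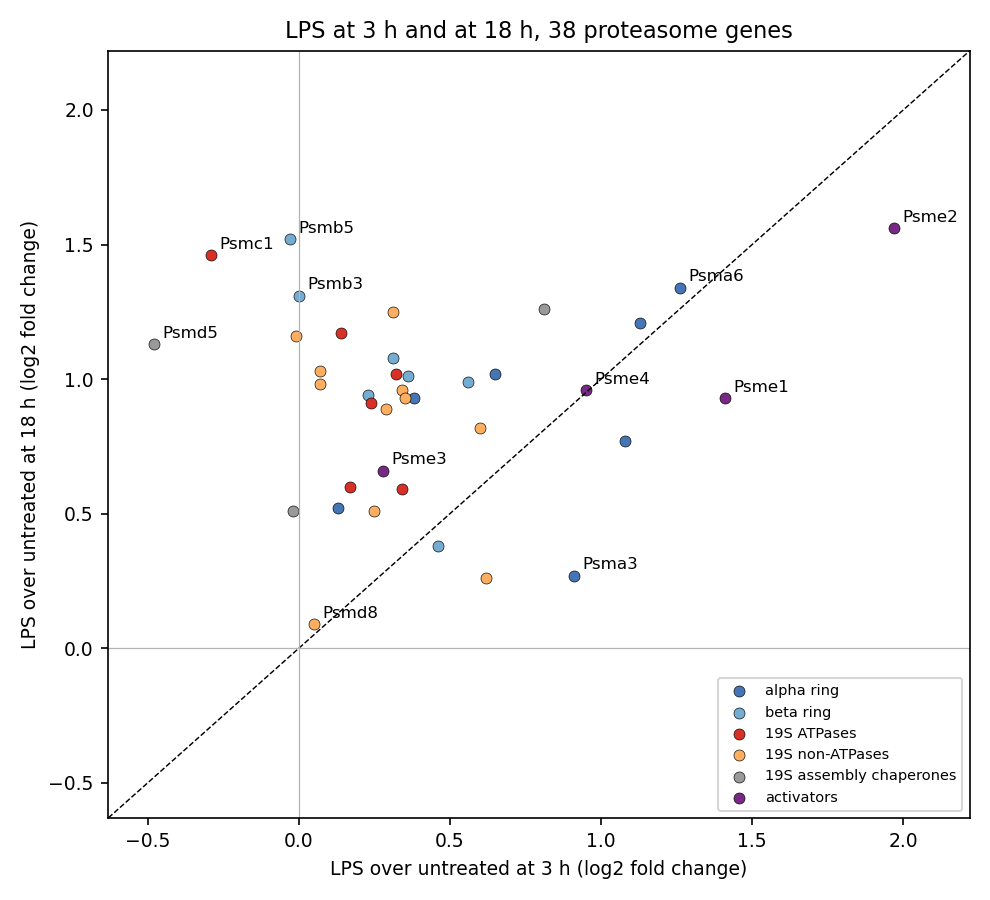
Log2 fold change of LPS over untreated at 3 h (x axis) and at 18 h (y axis) for the 38 tested members, coloured by class, with the dashed line where both are equal. Most points lie above the line, although 17 of the 29 called differences turn under spike-in scaling (7 without untreated replicate 4). Psmb5, Psmc1, Psmd2 and Psmd5 are below 0 at 3 h and above 1 at 18 h, as is Psmb3 from 0.00 at 3 h. Psme1 and Psme2 lie below the line.

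S14 and LPS cells were also compared directly. At 3 h, 13 of 38 members were lower and 2 higher in S14 cells than in LPS cells, against 22.4% of all genes lower and 23.7% higher, or 46.1% in either direction. The 13 were 5 of the 7 tested alpha subunits, 2 of the beta ring, 3 non-ATPases and 3 activators, and the 2 higher ones were Psmc1 (1.38-fold) and Psmd5 (1.95-fold). Psme1 in S14 cells was 0.506-fold its level in LPS cells. At 18 h, 33 of 38 were lower and 0 higher in S14 cells than in LPS cells, against 21.3% of all genes in each direction and 42.6% in either. The 5 not called were Psma3, Psmd6, Psmd8, Psmd9 and Psme2. In the second table Psma3 was called lower there, with a log2 fold change of -0.56 ± 0.11 (edgeR adjusted p = 4.88e-05). Psmd5 had the largest difference, with S14 cells at 0.476-fold the LPS level, followed by Psma6 at 0.518-fold. Under spike-in scaling 5 were lower in S14 cells at 3 h and 15 at 18 h, with 0 higher at either time. Without untreated replicate 4 at 18 h that scaling called 12 lower and 1 higher at 3 h, and 34 lower and 0 higher at 18 h.

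Markers of other cells differed between the groups too. At 3 h the 5 neutrophil markers summed to 5.09 to 11.4 CPM in S14 cells, 6.49 to 34.3 CPM in LPS cells and 2.64 to 3.83 CPM in untreated cells, so that both treatments were above untreated cells with no overlap. At 18 h they summed to 2.47 to 8.2 CPM in S14 cells. The 5 neutrophil markers summed to 40.3 to 49.4 CPM in LPS cells and to 1.74 to 4.64 CPM in untreated cells at 18 h, most of it S100a8 and S100a9, while Ly6g had 1 read in the 24 libraries. The 4 fibroblast markers summed to 10.3 to 17.5 CPM in LPS cells and to 0 to 1.58 CPM in untreated cells at 18 h. Most of it was Dcn, with 266 reads over the 24 libraries, while Col1a1 had 5, Col1a2 6 and Pdgfra 0. The macrophage markers summed to 15513 to 23537 CPM in LPS cells and to 30960 to 44752 CPM in untreated cells at 18 h, most of it Lyz2. The part of these in the proteasome results was not tested.

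Genes that act on the proteasome were measured in the same fits. Of the NRF1 pathway, whose transcription factor Nfe2l1 drives proteasome genes when the proteasome is inhibited, 4 of 10 genes were higher and 3 lower in LPS cells at 3 h, and 4 higher and 4 lower at 18 h. In those comparisons 55.5% and 55.6% of all genes were called in either direction, so shares near these are no result about a list. Nfe2l1 was 1.39-fold and 1.29-fold higher in S14 cells at 3 h and 18 h, 0.984-fold and not called in LPS cells at 3 h, and 1.81-fold higher in LPS cells at 18 h. Mafg, a small partner of that factor, was 0.321-fold at 3 h and 2.16-fold at 18 h in LPS cells, both called. The related partners Mafk and Maff went the other way at 3 h. Mafk had a mean of 128 CPM in LPS cells and 29.5 CPM in untreated cells, and Maff 14.3 and 4.02 CPM. Ddi2, the protease that cleaves Nfe2l1, was lower with LPS at both times, at 0.378-fold and 0.648-fold. In S14 cells 3 of these 10 were higher and 2 lower at 3 h, and 3 higher and 4 lower at 18 h, against 15.2% and 24.3% of all genes in either direction.

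Of 8 assembly factors and inhibitors, 3 were higher and 1 lower in LPS cells at 3 h, and 4 higher and 2 lower at 18 h, against the same 55.5% and 55.6% of all genes. In S14 cells edgeR called 0 at 3 h, with 1 at an unadjusted p under 0.05 and 0 by DESeq2. At 18 h 2 of the 8 were higher and 0 lower in S14 cells, near the 24.3% of all genes called in either direction. Pomp, which matures the core, was 1.45-fold higher at 3 h and 1.74-fold higher at 18 h of LPS. Of 13 factors that bind the 19S particle, 3 were higher and 3 lower in LPS cells at 3 h, and 6 higher and 2 lower at 18 h, both near the 55.5% and 55.6% of all genes called. S14 raised 2 and lowered 1 at 3 h and lowered 1 at 18 h, against 15.2% and 24.3% of all genes. Zfand5, a stimulator of the proteasome, was 2.26-fold higher at 3 h and 1.69-fold at 18 h of LPS. Zfand2a of the same list went the other way at 3 h, with a mean of 13.9 CPM in LPS cells and 67.6 CPM in untreated cells. Uba1, the main ubiquitin-activating enzyme, was 1.39-fold higher at 3 h and 2.18-fold higher at 18 h of LPS, and 1.5-fold higher in S14 cells at 18 h. Under spike-in scaling the S14 values at 18 h turned direction for Nfe2l1 (-0.70 on the log2 scale), Pomp (-0.46) and Uba1 (-0.36), with -0.01, -0.11 and 0.04 without untreated replicate 4, while their LPS values at 18 h did not. Of the 4 tested of 5 ubiquitin genes, LPS raised all 4 at 3 h, and at 18 h 3 were higher while Rps27a was lower at 0.504-fold. The shares of all genes called there were 55.5% and 55.6% in either direction, with 25.3% and 27.3% higher.

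Promoter windows of 250 bases before to 50 after the start, from RefSeq on GRCm38.p6, were found for 32 of the 39 members and for 27025 genes in all. The letters TGANNNNGC, the element bound by CNC and small Maf factors such as Nfe2l1, occurred on either strand in 18 of 32 members (56.2%), in 8 of 11 core subunits with a window (72.7%) and in 45.0% of all genes. The interferon-stimulated response element (ISRE) occurred in 4 of 32 members (12.5%), namely Psmb3, Psmd4, Psmd9 and Psme1, and in 3.99% of all genes. The kB element occurred in 28.1% of members and 22.9% of all genes, the GAS letters TTCNNNGAA in 3.12% and 9.55%, and CCAAT in 37.5% and 41.1%. The motifs can overlap one another, and a match is a description of letters only.

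The 250 bases before the start are shown for the 2 beta subunits whose LPS response was largest at 18 h. In Psmb5 (GRCm38.p6, chr14:54617996-54618245, minus strand) capitals mark TGANNNNGC at bases -47 to -39, counted from the start. A second match, at bases 42 to 50 after the start, lies outside the bases shown. In Psmb3 (GRCm38.p6, chr11:97703184-97703433, plus strand) capitals mark the ISRE, read on the other strand, at bases -163 to -154, and TGANNNNGC also occurs at bases -10 to -2.
Psmb5: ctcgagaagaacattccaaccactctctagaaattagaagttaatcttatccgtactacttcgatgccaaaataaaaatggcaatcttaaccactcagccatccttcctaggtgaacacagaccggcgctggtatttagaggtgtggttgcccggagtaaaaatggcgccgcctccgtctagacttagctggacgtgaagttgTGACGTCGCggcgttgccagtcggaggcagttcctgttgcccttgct
Psmb3: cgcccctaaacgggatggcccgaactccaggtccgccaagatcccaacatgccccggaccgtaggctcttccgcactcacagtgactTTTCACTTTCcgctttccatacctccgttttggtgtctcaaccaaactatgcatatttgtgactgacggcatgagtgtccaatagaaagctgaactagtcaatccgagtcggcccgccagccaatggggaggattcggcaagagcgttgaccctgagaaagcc
Psmb3 and Psmb5 were the 2 beta subunits nearest to no change at 3 h of LPS, at 1-fold and 0.983-fold, and were the 2 highest of the ring at 18 h, at 2.48-fold and 2.86-fold.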

How the data were processed

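The authors deposited a table of read counts per gene for 24 libraries, and a second table of counts divided by size factors, a scaled signal that also lists 92 ERCC and 22 SIRV spike-in RNAs. Per the submitters' processing notes, cutadapt 1.18, STAR 2.6.1a, featureCounts 1.6.4, DESeq2 and GRCm38 were used. No source used here states the annotation, how multi-mapped reads were handled or whether strand was used. Members, lists and named genes were chosen with earlier results of these data known. Values in every library were given for the 12 members of a fixed rule: the activators, the catalytic subunits and, per treatment comparison, up to 3 members with the largest called change in each direction. Psmd8 and the other genes named with values were chosen after their values were seen.

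The counts were fitted in 1 model over all 24 libraries with edgeR 4.0.16 (R 4.3.3, limma 3.58.1), using filterByExpr (minimum count 10, minimum total 15), TMM scaling and the robust quasi-likelihood F test. It tested 11717 genes, with Benjamini-Hochberg adjustment over all of them. Responses at the 2 times were compared as interaction contrasts. Whole reads were recovered from the second table, where 100.0% of values came out whole within 1e-06. The scripts were tested on simulated data. Alternatives were DESeq2 1.42.0, other scalings, spike-in scaling, other filters, the second table, a replicate block, the groups compared alone and leaving out each library. Deviations of same-numbered libraries were weakly correlated, with a median of 0.0264 and a range of -0.101 to 0.143. The labels do not say what a number shares, so numbers were not taken as pairs. Depth was 3334182 to 6350251 counts per library, and its counting error is part of the fitted spread. Copies were found with BLAST 2.17.0 against GENCODE M21.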

Additional observations from a re-analysis of the deposited data

Results flagged for a closer look

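Among 72 groups of 4 libraries of the named members, 5 held a library apart from the other 3 by Dixon's criterion at the 95% level, where chance gives about 1 in 20 groups. In S14 cells at 18 h, Psmb6 had 370 CPM in 1 library and 344 to 347 in the others. In the same group the second library was the low one for Psmb7, with 80.9 CPM, and for Psmd10, with 62.8 CPM against 80.4 to 80.9 in the others. Psme2 had 19.7 CPM in 1 LPS library at 18 h and 27.9 to 29.5 in the others. Psme4 had 71.2 CPM in 1 untreated library at 3 h and 63.6 to 64.5 in the others.

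The S14 over untreated difference was larger at 18 h than at 3 h for Psmb3 by 0.70 ± 0.14, Psmb5 by 0.69 ± 0.20 and Psmc1 by 0.73 ± 0.21 on the log2 scale (SE, edgeR adjusted p = 0.000437, 0.0121 and 0.019), and these 3 turned direction under spike-in scaling, Psmb3 and Psmc1 also without untreated replicate 4 at 18 h. For LPS it was larger at 18 h for Psmc1 by 1.75, Psmd5 by 1.62, Psmb5 by 1.54 and Psmb3 by 1.31. These 4 kept their direction under spike-in scaling, but none was called larger there with all libraries in the fit. The LPS difference was also larger for Psmb6 by 0.77, Psmd10 by 0.45, Psmb7 by 0.43 and Psme3 by 0.38. Under spike-in scaling these 4 turned, all but Psmb6 also without untreated replicate 4. Psme1 had the smaller LPS difference at 18 h, by -0.48 (edgeR adjusted p = 0.00143).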

How the results depend on the processing

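The scaling and 1 library moved the most. Under spike-in scaling the members called were 1 for S14 at 3 h, 13 for LPS at 3 h, 12 for S14 at 18 h (all lower), 5 for LPS at 18 h, 5 and 15 for S14 against LPS at 3 h and 18 h, 4 for untreated cells over time, and 8 and 6 for the time differences of the S14 and LPS responses. With untreated replicate 4 at 18 h also left out, 2 were called for S14 at 3 h, 0 for S14 at 18 h, 1 for untreated cells over time, and 1 and 7 for the time differences, while 26 for LPS at 3 h, 27 for LPS at 18 h, and 13 and 34 for S14 against LPS were within 1.5 times of the reported counts. A fit of the compared groups alone called 19 for S14 at 3 h. With 1 library left out, the counts were 7 to 10 and 23 to 26 for S14 and LPS at 3 h, 24 to 28 and 35 to 37 at 18 h, 15 to 15 and 32 to 33 for S14 against LPS, 25 to 29 for untreated cells over time, and 6 to 11 and 25 to 29 for the time differences. Other settings stayed within 1.5 times the reported counts.

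For S14 at 18 h the log2 fold changes that turned under spike-in scaling, and with untreated replicate 4 also left out, were -0.54 and -0.18 for Psma6, -0.52 and -0.00 for Psmb6, -0.78 and -0.18 for Psmb7, -0.92 and -0.46 for Psmd5, -0.87 and -0.30 for Psme3, and -0.72 and -0.11 for Psme4. Psmb5 (-0.19), Psmd10 (-0.14) and Psme1 (-0.51) turned with all libraries alone, as did Psme3 for LPS at 18 h (-0.04). For LPS at 3 h, Psmc1 was 0.04 under both spike-in settings and Psmb5 0.30 under both. Psmb5 was 0.02 under relative log expression scaling, DESeq2 and the compared groups alone. Psmb3 was -0.01 with no filter or a 1 CPM filter and -0.04 in the second table. With 1 library left out, Psmb3 ranged from -0.02 to 0.04, Psmb5 from -0.10 to 0.07, and Psmd5 for S14 at 18 h from -0.03 to 0.16. The cause was not tested.

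The replicate numbers were also tried as a block, although the 60 same-numbered pairs had a median correlation of deviations of 0.0264 and 1 of 60 was over 0.1. With the replicate block 11, 27, 27 and 36 members were called for S14 at 3 h, LPS at 3 h, S14 at 18 h and LPS at 18 h.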
